A study of Mus musculus with 12 samples.

Results

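The 8 genes examined here were low in the liver RNA of untreated ob/ob mice and far higher after ethionine: Slc34a2, S100g, Fndc5, Mroh2a, Hr, Maoa, Cela2a and Asz1. They are 8 of the 56205 genes of the count table, and they were picked from this same contrast between the groups. Their difference between the groups is therefore given as a description, with no test. The 12 libraries came from whole livers, 1 library per mouse, poly(A)-selected. All mice were ob/ob, which lack leptin, so both groups share the obese background and no lean mice were included. The FLO group (6 mice) had standard chow alone, and the fibrotic group (6 mice) had standard chow with DL-ethionine, the ethyl analogue of methionine. The name fibrotic comes from the sample titles, and whether these livers were fibrotic was not tested. For ob/ob mice given ethionine, the study saw no difference in the collagen gene Col1a1 and described microvesicular steatosis and inflammation. The labels put ethionine at 0.165% of the drinking water over 2 weeks, but the growth protocol names a 0.15% injection. The study's methods describe a lower percentage in the drinking water for a shorter time, so dose and duration are uncertain. They also state that only males were used. The mice were 8 to 10 weeks old at the start, per the study's methods.

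The 8 genes belong to different biological systems. Slc34a2 encodes the sodium-dependent phosphate transporter NaPi-IIb, best known from lung and intestinal epithelium, and S100g encodes calbindin-D9k, a calcium-binding protein of intestinal absorptive cells that is a textbook target of vitamin D. Maoa encodes monoamine oxidase A of the outer mitochondrial membrane, which oxidizes serotonin and noradrenaline. Hr (hairless) encodes a nuclear corepressor of the thyroid hormone, vitamin D and ROR receptors, and Fndc5 encodes the membrane precursor of irisin, known from muscle. Cela2a encodes a digestive elastase of pancreatic acinar cells. Asz1 encodes a germ cell protein of the piRNA pathway, and Mroh2a encodes a HEAT-repeat protein of little-known function.

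Not all of the 8 were near silent in FLO livers. In CPM (counts scaled to the library size), the FLO mean was 15.0 for Maoa, 7.80 for Mroh2a and 3.0 for Hr. It was below 2 CPM for the other 5, at 1.45 for Slc34a2, 0.786 for Fndc5, 0.647 for S100g, 0.00713 for Cela2a and 0 for Asz1. The first 3 were thus clearly expressed in FLO livers, and only Cela2a and Asz1 had FLO libraries without a single read.

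The upstream sequence is shown for 4 of the 5 genes with a FLO mean below 2 CPM, and these 4 differ in CpG content, the base step that mammals methylate. The lines give the 250 bases before the RefSeq start of each gene (build GRCm38.p6, 5′ to 3′ on the gene's strand), with every CG in capitals. S100g lies on the minus strand at chrX:162964600-162964849, Slc34a2 on the plus strand at chr5:53049103-53049352, Cela2a on the minus strand at chr4:141826006-141826255 and Asz1 on the minus strand at chr6:18109062-18109311.
S100g: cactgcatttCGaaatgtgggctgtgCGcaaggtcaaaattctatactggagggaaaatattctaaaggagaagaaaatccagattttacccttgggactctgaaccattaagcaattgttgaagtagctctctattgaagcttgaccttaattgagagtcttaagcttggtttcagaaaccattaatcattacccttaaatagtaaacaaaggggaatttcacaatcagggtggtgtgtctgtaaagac
Slc34a2: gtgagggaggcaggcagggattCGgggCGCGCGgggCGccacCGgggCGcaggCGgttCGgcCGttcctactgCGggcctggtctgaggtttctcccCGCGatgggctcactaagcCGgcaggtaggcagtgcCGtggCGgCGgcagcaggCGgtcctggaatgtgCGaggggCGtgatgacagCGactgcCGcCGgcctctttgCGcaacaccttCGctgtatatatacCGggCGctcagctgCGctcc
Cela2a: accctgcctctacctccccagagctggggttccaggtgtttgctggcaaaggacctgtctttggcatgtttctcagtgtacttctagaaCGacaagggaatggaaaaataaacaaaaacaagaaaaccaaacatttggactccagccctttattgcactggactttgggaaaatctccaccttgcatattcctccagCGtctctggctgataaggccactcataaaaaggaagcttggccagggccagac
Asz1: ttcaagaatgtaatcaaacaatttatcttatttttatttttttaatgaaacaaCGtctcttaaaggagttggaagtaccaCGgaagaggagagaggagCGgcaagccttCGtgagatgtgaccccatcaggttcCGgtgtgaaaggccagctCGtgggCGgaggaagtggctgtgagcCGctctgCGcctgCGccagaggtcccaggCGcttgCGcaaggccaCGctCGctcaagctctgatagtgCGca
The S100g and Cela2a stretches hold 2 CG each, against 28 for Slc34a2 and 15 for Asz1. The median over 32851 RefSeq promoters of this length was 6. Promoters were found for 7 of the 8 genes. Fndc5 had 38 CG, more than 98.1% of all promoters, Maoa had 11, and Mroh2a had 0. The 7 genes therefore covered nearly the whole range of promoter CpG content. The RefSeq starts of Slc34a2, Cela2a and Mroh2a lie inside the GENCODE gene spans, downstream of that annotation's first base. The Slc34a2 stretch thus lies wholly inside its span, and those of Cela2a and Mroh2a lie partly inside.

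Short motifs were searched on both strands of the same 7 stretches. The nuclear receptor core AGGTCA was found in S100g alone, where it occurred 2 times, and in 14% of all promoters. GCGTG, the core bound by the aryl hydrocarbon receptor, was found in Fndc5, Slc34a2 and Asz1 and in 28.2% of promoters. Mroh2a held a TATAAA and a CCAAT, found in 12.4% and 33.8% of promoters, and S100g held a TGACNNNGC, found in 10.2%. TGANTCA and CACGTG occurred in none of the 7, against 6.75% and 6.02% of promoters. No motif was shared by more than 3 of the 7 genes, and a match of letters is not a binding site.

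Library totals ran from 17815568 to 24814263 counts. FLO replicate 3 went against the label of male mice, with 3773 counts of Xist, the RNA of the inactive X chromosome, where the other 11 libraries had 0 to 4, and with 4 counts of the Y-linked Ddx3y where they had 556 to 977. Skeletal muscle markers were also highest in that library, at a summed 238 CPM, and next in FLO replicate 2, at 106 CPM, against 6.06 to 8.75 in the other 10. FLO replicate 3 was kept, and values without it are given where it touches a gene. In whole tissue, fewer cells of a type and less RNA per cell cannot be told apart. Hepatocyte markers were abundant in every library, with a summed level of 75600 to 90700 CPM in FLO and 56200 to 90400 CPM in fibrotic libraries. Most of that sum was Alb, at a mean of 65400 CPM in FLO and 52900 CPM in fibrotic livers. Of 13416 genes that passed the low-count filter, 29.9% were past the threshold of the edgeR quasi-likelihood test (adjusted p of 0.01 or less and a log2 fold change over 0.5 in size), and 15.9% were past it upwards. In 15.3% every fibrotic library lay above every FLO library. Of 7 tested hepatocyte markers, 2 were past the threshold upwards (Fgb and Cps1) and 2 downwards (Apoa1 and Serpina1a). Cps1 lost its call without a low-count filter and without fibrotic replicate 1, 2, 3 or 4 or FLO replicate 2, 4, 5 or 6. Of the 8 genes, 7 passed the filter and Asz1 did not. All 8 had groups that did not overlap, which the way they were picked fixes in large part.

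**Figure D1:**
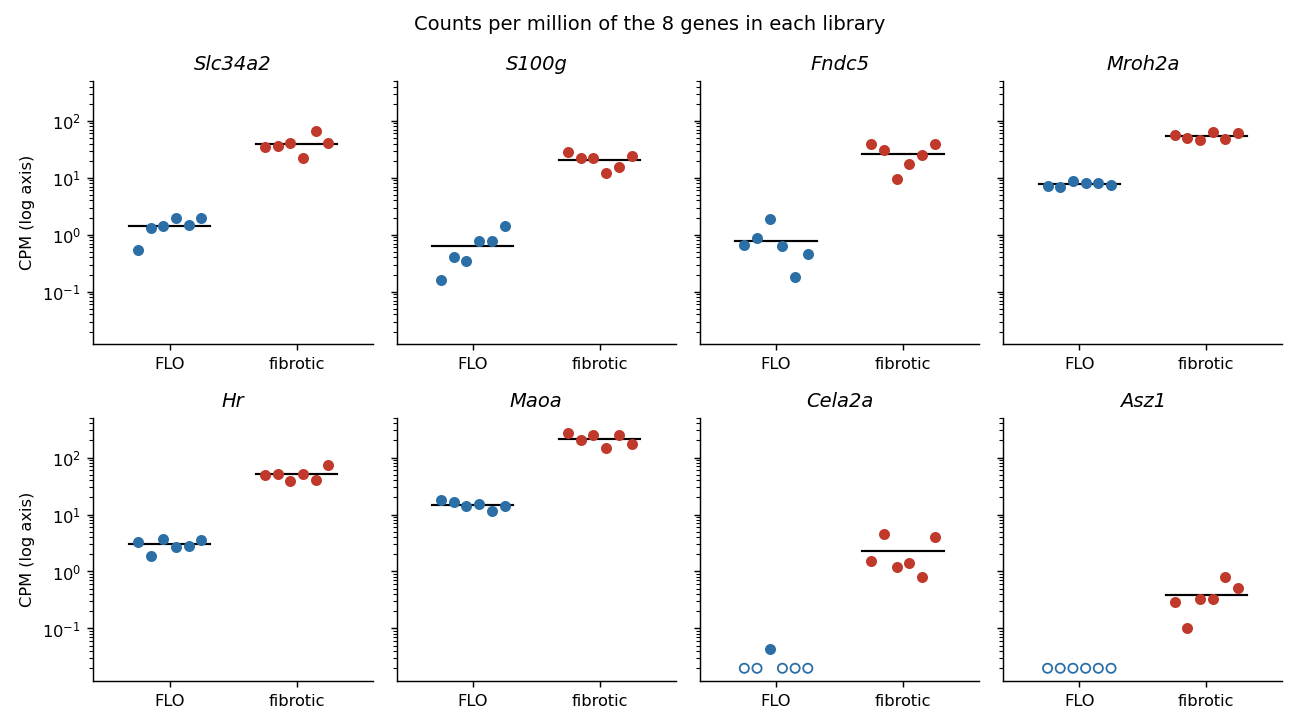
CPM (log axis) of each gene in the 6 FLO (blue) and 6 fibrotic (red) libraries, replicates 1 to 6 from left to right. Black lines are group means and open circles are libraries with 0 counts, drawn at 0.02. In all 8 panels the fibrotic libraries lie above the FLO libraries, while the FLO level runs from 0 in Asz1 to a mean of 15.0 CPM in Maoa.

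Slc34a2 (ENSMUSG00000029188, plus strand, chr5:53038081-53071664, GENCODE M21 on GRCm38) had 707, 707, 772, 478, 1295 and 803 counts in fibrotic replicates 1 to 6. In FLO replicates 1 to 6 it had 10, 23, 33, 40, 25 and 39 counts. Fibrotic replicate 5 was highest and replicate 4 lowest, and even that lowest library stood 11.3-fold above the highest FLO library in CPM. It averaged 40 ± 14.1 CPM over the fibrotic group (SD, n = 6), against 1.45 ± 0.524 CPM over the FLO group (SD, n = 6). The fitted log2 fold change was 4.77 with a standard error (SE) of 0.288, and 4.76 without FLO replicate 3. The largest value among the FLO libraries was 1.98 CPM and the smallest 0.547 CPM.

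The phosphate transport genes did not share the direction of Slc34a2 as a group. Of 13 other genes of phosphate transport and handling that were tested, 1 was past the threshold upwards and 2 downwards, with a median log2 fold change of -0.04, against 0.03 over all tested genes. Slc17a1, an organic anion and phosphate transporter of the hepatocyte and kidney, rose by 0.89 on the log2 scale (SE 0.186, edgeR adjusted p = 0.00104). Abcc6, the transporter whose loss causes ectopic calcification, fell by 1.82 (SE 0.239, edgeR adjusted p = 2.72e-05), and Slc37a4, the glucose-6-phosphate translocase, fell by 0.72 (SE 0.101). The counts past the threshold in this list rose from 3 to 5 without fibrotic replicate 2 or with a minimum of 10 counts in every sample. Slc25a3, the mitochondrial phosphate carrier with most counts in the list, had a log2 fold change of 0.31 (SE 0.0707). The kidney relatives Slc34a1 and Slc34a3 had 6 and 0 counts over all 12 libraries. Within the NaPi-II family, Slc34a2 was thus the member detected in quantity.

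Slc34a2 is a marker of alveolar type 2 cells of the lung, so the other markers of that cell type were read beside it. Sftpc, Sftpb and Lamp3 had 0 counts in all libraries, which includes the defining surfactant protein C. Of 4 tested markers, Sftpa1 was past the threshold, with a log2 fold change of 1.2 (SE 0.317, edgeR adjusted p = 0.005), and it lost that call without FLO replicate 1, 3, 4 or 5, leaving 0, while without fibrotic replicate 2 the list had 2. At an unadjusted p under 0.05 in the edgeR fit, 3 of the 4 were higher and 0 lower. Their median log2 fold change was 0.76. The summed level of the 7 markers, mostly the widely expressed Abca3, was 109 to 199 CPM in FLO and 164 to 244 CPM in fibrotic libraries.

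S100g (ENSMUSG00000040808, minus strand, chrX:162961992-162964599) had 579, 429, 417, 259, 302 and 486 counts in fibrotic replicates 1 to 6 and 3, 7, 8, 16, 13 and 28 counts in FLO replicates 1 to 6. In proportion the FLO libraries differed among themselves by more than the fibrotic ones did, and FLO replicate 6 was the highest of them. It averaged 20.7 ± 5.97 CPM over the fibrotic group (SD, n = 6), against 0.647 ± 0.452 CPM over the FLO group (SD, n = 6). The fitted log2 fold change was 4.99 (SE 0.346). Without FLO replicate 3 it was 4.84. Its mRNA is short, with 480 exon bases, so that per kilobase of exon S100g reached 43.1 CPM in fibrotic livers. On that scale it came next after Maoa, at 51.6 CPM per kilobase with overlapping spreads, and ahead of Fndc5 at 9.63, Slc34a2 at 7.98, Hr at 7.34 and Mroh2a at 6.36. The spreads of the last 4 overlapped.

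The called genes of the vitamin D system were all lower. Of 9 tested genes of vitamin D metabolism and epithelial calcium transport, 0 were past the threshold upwards in the edgeR fit and 3 downwards, and DESeq2 and limma-voom also counted 3 in all. At an unadjusted p under 0.05, 3 were higher and 4 lower. Cyp2r1, the liver vitamin D 25-hydroxylase, fell by 1.73 (SE 0.205, edgeR adjusted p = 5.91e-06), the retinoid receptor gene Rxrg fell by 1.08 (SE 0.265), and Cyp27a1 fell by 0.56 (SE 0.13), a call lost without fibrotic replicate 4 or FLO replicate 5. Gc, the plasma vitamin D binding protein with most counts in the list, had a log2 fold change of -0.43 (SE 0.0989). The vitamin D receptor gene Vdr had at most 4 counts in any library, and Cyp24a1, the most responsive vitamin D target, and the calcium channel gene Trpv5 had 0 in all 12. The epithelial calcium channel gene Trpv6 had 1 count in all.

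The called genes of the S100 family were lower too. Of 7 other S100 genes tested, 4 were past the threshold downwards and 0 upwards in the edgeR fit, and 1 was higher at an unadjusted p under 0.05. S100a1 fell by 1.03 (SE 0.162), S100a13 by 0.61 (SE 0.132), S100a10 by 0.51 (SE 0.116) and S100a16 by 0.50 (SE 0.116). The values of the last pair stood at the edge of the fold threshold, and the count of 4 became 2 without fibrotic replicate 4 or FLO replicate 5. As an enterocyte gene S100g was also read against 9 enterocyte markers. Both tested markers fell, Fabp2, an intestinal fatty acid binding protein, by 1.89 (SE 0.134) and Lgals4, a galectin, by 1.21 (SE 0.263), while Alpi, Cdx1, Cdx2 and Sis had 0 counts in all libraries. The summed level of the 9 markers was 96.1 to 147 CPM in FLO and 24.8 to 46.8 CPM in fibrotic libraries.

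Maoa (ENSMUSG00000025037, plus strand, chrX:16619698-16687818) was the most abundant of the 8. It had 5633, 3961, 4523, 3127, 4942 and 3467 counts in fibrotic replicates 1 to 6 and 327, 292, 335, 308, 195 and 278 counts in FLO replicates 1 to 6. The lowest fibrotic library, replicate 4, stood 8.18-fold above the highest FLO library in CPM. It averaged 215 ± 48.6 CPM over the fibrotic group (SD, n = 6), against 15.0 ± 2.22 CPM over the FLO group (SD, n = 6). The fitted log2 fold change was 3.84 (SE 0.162), and 3.83 without FLO replicate 3.

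Maob, the paralogue of Maoa that prefers phenylethylamine as substrate, fell. It lies 21464 bases from Maoa on the same chromosome. Maob was at 84.3, 121, 110, 59.7, 75.7 and 73.1 CPM in fibrotic replicates 1 to 6 and at 308, 248, 278, 230, 212 and 216 CPM in FLO replicates 1 to 6, with no overlap between the groups. Its log2 fold change was -1.51 (SE 0.161, edgeR adjusted p = 2.34e-06). Per kilobase of exon, Maoa went from 3.59 ± 0.532 CPM (SD, n = 6) in FLO to 51.6 ± 11.7 CPM (SD, n = 6) in fibrotic livers, and Maob from 89.2 ± 13.6 CPM to 31.3 ± 8.43 CPM. The ratio of Maoa to Maob on this scale was 0.0345 to 0.0453 in the 6 FLO libraries and 1.11 to 2.20 in the 6 fibrotic libraries. The order of the 2 enzymes was therefore reversed in every fibrotic library, as a description, since Maoa was picked on this contrast.

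The other genes of monoamine metabolism went both ways. Of 13 tested, 5 were past the threshold downwards and 2 upwards, and at an unadjusted p under 0.05, 5 were lower and 5 higher. The vesicular transporter gene Slc18a1 fell by 1.29 (SE 0.232) and the mitochondrial aldehyde dehydrogenase gene Aldh2 by 0.65 (SE 0.0896). Aoc1, the diamine oxidase, rose by 3.57 (SE 0.496, edgeR adjusted p = 2.66e-05), from 0 to 4 counts in FLO libraries to 11 to 32 counts in fibrotic ones. Slc22a3, an organic cation transporter gene, rose by 0.78 (SE 0.173). Th and Dbh, which make catecholamines, had 0 counts in all libraries.

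Hr (ENSMUSG00000022096, plus strand, chr14:70552212-70573548) had 1040, 1005, 706, 1088, 810 and 1447 counts in fibrotic replicates 1 to 6 and 59, 33, 88, 56, 48 and 70 counts in FLO replicates 1 to 6. Fibrotic replicate 6 was highest. It averaged 50.8 ± 12.4 CPM over the fibrotic group (SD, n = 6), against 3.0 ± 0.672 CPM over the FLO group (SD, n = 6). The fitted log2 fold change was 4.07 (SE 0.184), and 4.145 without FLO replicate 3, its highest FLO library.

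Among the receptors, corepressors and thyroid hormone targets linked to hairless, 4 of 15 tested were past the threshold upwards and 0 downwards in the edgeR fit, and 3 were lower at an unadjusted p under 0.05. DESeq2 and limma-voom also counted 4 in all. Dio1, the deiodinase that activates thyroid hormone and is itself a target of it, rose by 1.08 (SE 0.151, edgeR adjusted p = 2.83e-05). Rora, a nuclear receptor that hairless represses, rose by 0.83 (SE 0.156). The corepressor gene Ncor1 rose by 0.50 (SE 0.114), at the edge of the fold threshold and below it with RLE scaling (0.48), in DESeq2 (0.49) and without fibrotic replicate 2, 3 or 4 or FLO replicate 3, 5 or 6. Thrsp, a thyroid hormone target of lipogenesis with most counts in the list, had a log2 fold change of -0.55 (SE 0.339), and the thyroid target Klf9 was not past the threshold. The closest structural relatives of Hr, the demethylase genes Kdm3a, Kdm3b and Jmjd1c, were not past it either.

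Fndc5 (ENSMUSG00000001334, plus strand, chr4:129136999-129144593) had 795, 595, 176, 370, 501 and 768 counts in fibrotic replicates 1 to 6 and 12, 15, 45, 13, 3 and 9 counts in FLO replicates 1 to 6. The groups came closest here, with the lowest fibrotic library 4.93-fold above the highest FLO library in CPM, and both were replicate 3. FLO replicate 3 is also the library with the most skeletal muscle marker RNA, and the part of muscle RNA in its Fndc5 value was not tested. It averaged 26.6 ± 11.7 CPM over the fibrotic group (SD, n = 6), against 0.786 ± 0.604 CPM over the FLO group (SD, n = 6). The log2 fold change was 5.01 (SE 0.461), and 5.55 without FLO replicate 3. Of the muscle markers, Acta1 had 0 to 9 counts in the fibrotic libraries, Ckm 0 to 2 and Pvalb 0. The 2 tested markers were present in every fibrotic library, with 9 to 31 counts of Myh4 and 89 to 141 of Des. Their log2 fold changes were 0.81 (SE 0.887) for Myh4 and -0.80 (SE 0.308) for Des. In the edgeR fit and in limma-voom 0 of these 2 were past the threshold, 1 being lower at an unadjusted p under 0.05. DESeq2, which tested more of the muscle markers, counted 5 past it, and the edgeR fits without FLO replicate 4 or 5 counted 1. All markers that did not pass the edgeR filter had lower means in fibrotic than in FLO livers. Acta1 was at 0.247 against 24.4 CPM and Ckm at 0.0251 against 8.81 CPM.

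In the Fndc family and the irisin axis, 2 of 10 tested genes were past the threshold upwards and 0 downwards in the edgeR fit, 2 in limma-voom and 3 in DESeq2. At an unadjusted p under 0.05, 6 were higher and 2 lower. Fndc10 rose by 1.83 (SE 0.347, edgeR adjusted p = 0.000641), and Esrra, a nuclear receptor partner of PGC-1alpha, rose by 0.92 (SE 0.0795, edgeR adjusted p = 3e-07). Ppargc1a, which encodes PGC-1alpha and drives Fndc5 in exercised muscle, was not past the threshold, with a mean of 7.34 CPM in FLO and 11.4 CPM in fibrotic livers. Itgb5, a subunit of the integrin described as an irisin receptor and the list's gene with most counts, had a log2 fold change of 0.41 (SE 0.0954).

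Mroh2a (ENSMUSG00000079429, plus strand, chr1:88226986-88262289) had 1143, 978, 868, 1357, 962 and 1191 counts in fibrotic replicates 1 to 6 and 131, 121, 208, 169, 138 and 145 counts in FLO replicates 1 to 6. Libraries of a group were closely alike. It averaged 54.0 ± 6.82 CPM over the fibrotic group (SD, n = 6), against 7.80 ± 0.761 CPM over the FLO group (SD, n = 6). The fitted log2 fold change was 2.79 (SE 0.101), the smallest of the 7 fitted. Without FLO replicate 3, its highest FLO library, it was 2.83. Of its relatives, Mroh1, the abundant member, had a log2 fold change of -0.23 (SE 0.114), and Mroh2b, Mroh4 and Mroh9 had 0 counts in all libraries. In the edgeR fit 0 of the 2 tested relatives were past the threshold, with 0 at an unadjusted p under 0.05, and DESeq2 and the fit without a low-count filter each counted 1.

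Cela2a (ENSMUSG00000058579, minus strand, chr4:141814962-141826160) had 31, 90, 22, 30, 16 and 81 counts in fibrotic replicates 1 to 6. In the FLO libraries it had 1 count, in replicate 3, and 0 in the other 5. Fibrotic replicates 2 and 6 were well above the remaining 4. It averaged 2.26 ± 1.64 CPM over the fibrotic group (SD, n = 6), against 0.00713 ± 0.0175 CPM over the FLO group (SD, n = 6). Over the groups this was 270 counts against 1, a ratio of 262 with an exact 95% counting interval of 46.6 to 10400. Without FLO replicate 3 the FLO count was 0. The fitted log2 fold change, which depends on the prior count at this depth, was 7.25 (SE 0.784), 5.90 in limma-voom and 8.45 without FLO replicate 3.

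Most other acinar genes were not detected. Of 25 pancreatic acinar genes, 16 had 0 counts in all 12 libraries, among them Prss1, Cpa1, Cpb1, Pnlip, Cel, Clps and the acinar transcription factor gene Ptf1a. Only Cela1 was tested, with a log2 fold change of 0.03 (SE 0.223) at 3.1 CPM in FLO and 3.17 CPM in fibrotic livers. Bhlha15, another acinar transcription factor gene, was too low to be tested, with 0 to 4 counts in FLO and 1 to 14 counts in fibrotic libraries. The summed level of the 25 genes was 2.24 to 4.88 CPM in FLO and 3.18 to 4.90 CPM in fibrotic libraries, so the ranges overlapped. In the annotation 305 of the Cela2a exon bases, 17.7%, also belong to Ctrc on the same strand, which had 0 counts in all libraries. A further 94 bases overlap Casp9 on the opposite strand, which was at 11.3 to 18.6 CPM in FLO and 8.61 to 13.5 CPM in fibrotic libraries.

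Asz1 (ENSMUSG00000010796, minus strand, chr6:18050964-18109061) had 6, 2, 6, 7, 16 and 10 counts in fibrotic replicates 1 to 6 and 0 in all 6 FLO libraries. The level was 0.393 ± 0.24 CPM (SD, n = 6) in fibrotic livers. Against a floor of 3 counts over the FLO group, 47 counts made it at least 15.2-fold higher. Every fibrotic library held the transcript, but at a depth where counting error alone gives a coefficient of variation of 35.7%.

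Most germ cell genes were too low to be tested. Of 35 genes of the germ line and the piRNA pathway, 10 had 0 counts in all libraries, including Mael, Piwil1, Tdrd1 and Mov10l1, and 5 passed the filter. Of those 5, 3 were past the threshold upwards and 0 downwards in the edgeR fit, with 1 lower at an unadjusted p under 0.05. Pld6, a mitochondrial piRNA factor also expressed outside the germ line, rose by 1.06 (SE 0.221), the meiotic cohesin gene Rec8 by 1.04 (SE 0.238) and Tdrkh, which tethers Piwi proteins to mitochondria, by 0.69 (SE 0.181). Tdrkh lost its call without fibrotic replicate 2 or 6 or FLO replicate 1, 2, 4 or 6. Ddx4, the classical germ cell helicase gene, had 0 to 2 counts in FLO and 1 to 13 counts in fibrotic libraries. The summed level of the 35 genes was 36.2 to 46.8 CPM in FLO and 38.0 to 46.6 CPM in fibrotic libraries. Most of that sum was Tdrd7, at a mean of 31.3 CPM in FLO and 25 CPM in fibrotic livers (log2 fold change -0.32, SE 0.0803). The sum therefore says little about the 3 genes that rose.

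**Figure D2:**
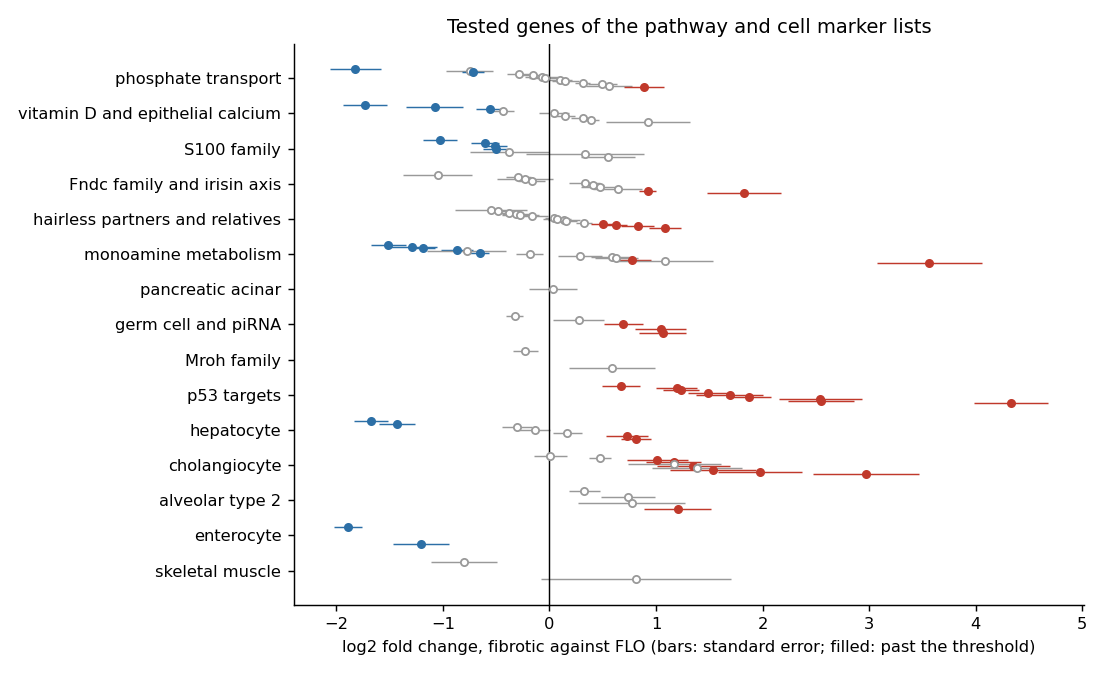
Log2 fold change (fibrotic against FLO) with its standard error for each tested gene of the pathway and cell marker lists, without the 8 genes themselves. Filled points were past the threshold, red upwards and blue downwards. The phosphate transport, vitamin D, S100 and monoamine lists hold more genes past the threshold downwards than upwards, phosphate transport by 2 to 1. The alveolar type 2 list holds 1 upwards and 0 downwards, and all 9 p53 targets rose.

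The fold changes of the 7 fitted genes placed them high among the 13416 tested. Ranked by log2 fold change from the highest, Cela2a was at position 3, Fndc5 at 14, S100g at 15, Slc34a2 at 17, Hr at 28, Maoa at 37 and Mroh2a at 122. The median log2 fold change of the 8 was 4.88 with Asz1 taken from a fit without a filter, and 4.42 with Asz1 at its counting bound, against 0.03 over all tested genes. A wider class of genes with a FLO mean below 2 CPM and a called log2 fold change of at least 3 held 89 genes, of which Cela2a, Fndc5, S100g and Slc34a2 were 4. In 86 of the 89 the groups did not overlap, which the definition of the class favours. Among the other 85 were Myh6, a cardiac myosin heavy chain gene, and Tmc5, a gene of the transmembrane channel-like family, with 431 and 193 counts in fibrotic libraries and 0 in all FLO libraries. These counts made them at least 139-fold and at least 62.4-fold higher, against 3 counts over the FLO group. Muc13, an epithelial mucin gene, was at 3.87 to 18.1 CPM in fibrotic and 0 to 0.219 CPM in FLO libraries (log2 fold change 7.0, SE 0.592).

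**Figure D3:**
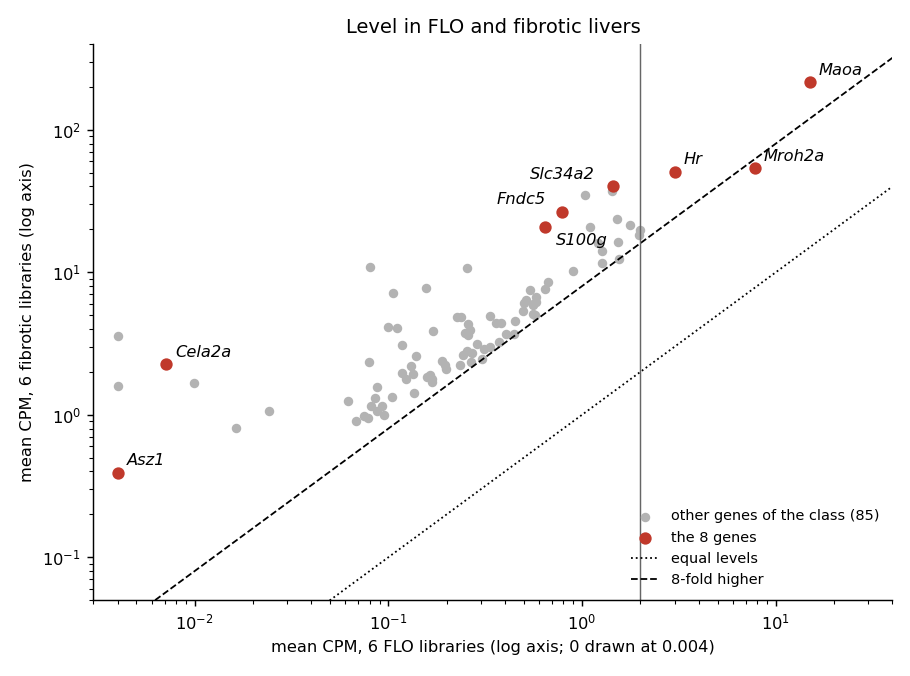
Mean CPM in the 6 fibrotic against the 6 FLO libraries (both log axes) for the 8 genes (red, named) and the other 85 genes of the class with a FLO mean below 2 CPM and a called log2 fold change of at least 3 (grey). The vertical line marks 2 CPM, and a mean of 0 is drawn at 0.004. Hr, Mroh2a and Maoa lie to the right of the line, and Mroh2a lies below the 8-fold line.

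The spread among the 6 fibrotic libraries set the genes apart. The coefficient of variation of the CPM was 12.6% for Mroh2a, 22.6% for Maoa, 24.4% for Hr, 28.8% for S100g, 35.3% for Slc34a2, 44.1% for Fndc5, 61.1% for Asz1 and 72.2% for Cela2a. Counting error alone would give 14.9% for Cela2a and 35.7% for Asz1, and 1.53% to 4.93% for the other 6. On the log2 scale the standard deviation was 0.18 for Mroh2a, below the median of 0.247 over all tested genes, and 0.781 for Fndc5, larger than in 96.3% of tested genes. The highest fibrotic library was replicate 6 for Hr and Fndc5, replicate 1 for S100g and Maoa, replicate 5 for Slc34a2 and Asz1, replicate 4 for Mroh2a and replicate 2 for Cela2a. No library was highest for more than 2 of the 8 genes. The lowest values were shared more widely, with replicate 4 lowest for Slc34a2, S100g and Maoa and replicate 3 for Fndc5, Mroh2a and Hr. For Cela2a the lowest was replicate 5 and for Asz1 replicate 2.

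Whether the genes varied together was examined within the fibrotic group, where the order of the libraries had no part in the choice of genes. Of the 28 pairs, 17 had a positive and 11 a negative Pearson r of log2 CPM, with a median of 0.105. By two-sided exact permutation over all 720 pairings of the 6 libraries (smallest possible p 0.00278), 0 pairs had an unadjusted p of 0.05 or less, and the lowest adjusted p over the 28 was 0.708. The highest r was that of Hr and Cela2a, at 0.756 (rho 0.829, exact permutation p = 0.0611, adjusted 0.708), and it was 0.687 without the 2 libraries farthest from the median of Hr. Mroh2a and Hr followed with r = 0.731 (rho 0.714, exact permutation p = 0.0944, adjusted 0.708) and r = 0.778 without the 2 farthest libraries, then Fndc5 and Hr with r = 0.691 (rho 0.714, exact permutation p = 0.126, adjusted 0.708) and 0.781. These 3 pairs all contain Hr, and each kept a positive r without any single fibrotic library, the lowest values being 0.626, 0.612 and 0.479.

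The lowest r was that of Mroh2a and Maoa, at -0.727 (rho -0.60, exact permutation p = 0.121, adjusted 0.708). It stayed negative without any single fibrotic library, from -0.951 without replicate 1 to -0.472 without replicate 4, the library with the highest Mroh2a and the lowest Maoa. Without the 2 libraries farthest from the Mroh2a median, replicate 4 among them, r was 0.422, so its sign depends on which libraries are kept. Slc34a2 and Mroh2a had r = -0.688 (rho -0.771, exact permutation p = 0.124, adjusted 0.708), which was -0.122 without the 2 farthest libraries. Slc34a2 and S100g, the 2 mineral transport genes, had r = 0.185 (rho 0.0286, exact permutation p = 0.738, adjusted 0.939), and that value ran from -0.923 without fibrotic replicate 4 to 0.854 without replicate 5. With 6 libraries a weak relation was not detectable. A strong one could be missed too, since after adjustment over all pairs a single pair could not have reached 0.05, however strong. The adjusted p-values therefore cannot decide whether any single pair was related. In the FLO libraries, 4 genes had a median of at least 20 counts, and as a description Mroh2a and Hr had r = 0.492 there and Mroh2a and Maoa had r = -0.575, but without the 2 farthest libraries the first of these was -0.879.

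**Figure D4:**
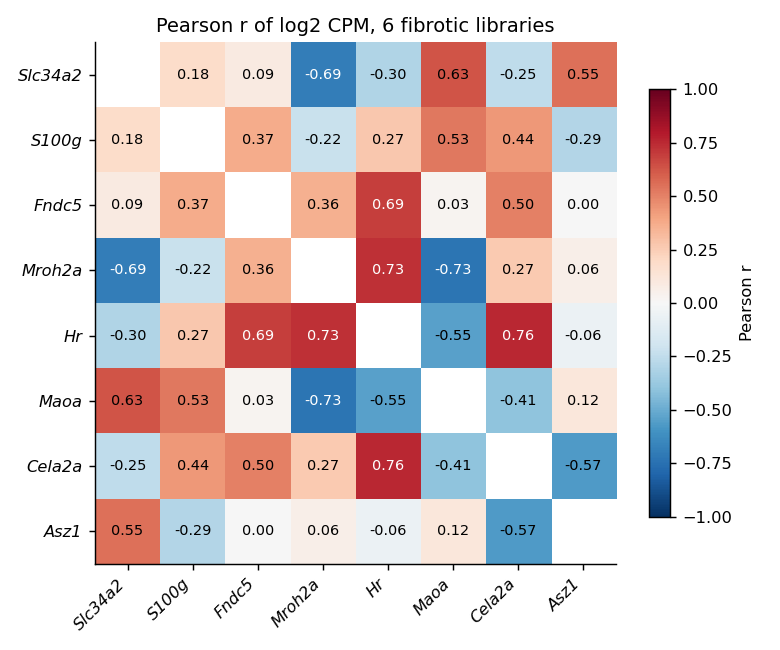
Pearson r of log2 CPM over the 6 fibrotic libraries for each of the 28 pairs of genes, from -1 (blue) to 1 (red). Hr is positive with Fndc5, Mroh2a and Cela2a, and Maoa is negative with Mroh2a and Hr, but 0 of the 28 pairs had an exact permutation p of 0.05 or less.

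Each gene was also set against 4 measures over the 6 fibrotic libraries. These were the total count, a first principal component, and the mean log2 CPM of 9 p53 targets and of 10 cholangiocyte markers. The component was computed without the 8 genes but over all 12 libraries, and it set the groups apart. It was 30.5 to 67.6 in fibrotic and -50.7 to -43.0 in FLO libraries, the contrast on which the 8 genes were picked. Of the 32 relations between gene and measure, 3 had an unadjusted exact permutation p of 0.05 or less. For 0 of them was the adjusted p that low, the lowest being 0.415. With 6 libraries a single relation could not have reached an adjusted p of 0.05, however strong, so the adjusted values cannot decide about single relations. Mroh2a was highest where the mean of the p53 targets was highest (r = 0.880, rho 0.886, exact permutation p = 0.025, adjusted 0.415), and r was 0.867 without the 2 farthest libraries. With the first principal component its relation was also positive (r = 0.828, rho 0.886, exact permutation p = 0.0375, adjusted 0.415), where r was 0.468 without the 2 farthest. Asz1 was related negatively to the total count (r = -0.829, rho -0.829, exact permutation p = 0.0389, adjusted 0.415), where r was -0.413 without the 2 farthest. The p53 targets themselves rose between the groups, 9 of 9 tested, led by Phlda3 at 4.33 (SE 0.351) and including Cdkn1a, the cell cycle inhibitor p21, at 2.54 (SE 0.388). Trp53inp1, with most counts of them, rose by 1.49 (SE 0.185), and Sesn2, with the smallest change, lost its call in limma-voom and without fibrotic replicate 1 or 6 or FLO replicate 3, 4, 5 or 6. Of the cholangiocyte markers 6 of 10 were past the threshold upwards, among them Prom1 at 2.97 (SE 0.497) and Muc1 at 1.98 (SE 0.398), and their summed level was 72.5 to 112 CPM in FLO and 124 to 346 CPM in fibrotic libraries. That count was 4 in limma-voom, 8 in DESeq2 and 3 without FLO replicate 1, 2, 4 or 5, and the part of bile duct cells in the levels of the 8 genes was not tested.

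The genes most alike in pattern over the 6 fibrotic libraries are given by Pearson r of log2 CPM, as a description among 13416 tested genes. For Slc34a2 they were Itgb5 (0.995), Igsf5 (0.992) and Aste1 (0.991), and for S100g they were Atp5j2 (0.991), Ndufa7 (0.99) and Mettl23 (0.988). For Maoa they were Fam149b (0.987), Coro7 (0.984) and Sox17 (0.981), and for Mroh2a they were Fbxo46 (0.995), Zcchc17 (0.994) and Il1b (0.981). Fndc5 was most like Wdr46 (0.983), Med29 (0.982) and Tbc1d5 (0.981), and Hr most like Chic1 (0.983), Cbx8 (0.966) and Mrtfb (0.964). None of the 8 genes was among the 3 most alike of another. With 6 points, r values of this size are reached by many genes: 414 genes had r of 0.9 or more with S100g and 37 with Hr.

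The chromosomal neighbours of each gene were examined as data that had no part in its choice, taking the 3 nearest tested genes on each side in GENCODE M21. Of these 48 neighbours, 18 were past the threshold, or 37.5%, against 29.9% of all tested genes, 8 of them upwards and 10 downwards, and their median log2 fold change was -0.08. The direction of the 8 genes was thus not that of their neighbours as a group. The highest neighbour was Nudt18, a nucleotide hydrolase gene 4089 bases beyond Hr, at 96.3 to 147 CPM in fibrotic and 15.1 to 27.2 CPM in FLO libraries (log2 fold change 2.54, SE 0.153, edgeR adjusted p = 1.13e-08). Reep4, 3279 bases from Hr on the other side, had a log2 fold change of 0.14 (SE 0.127), while Polr3d, farther out on that side, rose by 1.09 (SE 0.117).

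The neighbours of Mroh2a moved in opposite directions. Mroh2a lies 7989 bases from the Ugt1a cluster of glucuronosyltransferase genes, where Ugt1a5 fell by 4.38 (SE 0.37) and Ugt1a6a fell by 1.10 (SE 0.0816), while Ugt1a1, the bilirubin-conjugating enzyme, rose by 0.54 (SE 0.107), a call lost without fibrotic replicate 1. The Ugt1a genes share their last exons, so the split of reads between them is uncertain. Hjurp, a centromere chaperone gene 182 bases beyond Mroh2a, rose by 0.82 (SE 0.137). Beside Maoa, only Maob was past the threshold among the 6 neighbours.

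S100g lies within the span of Ctps2, a CTP synthase gene on the opposite strand, which was at 16.3 to 18.3 CPM in fibrotic and 7.77 to 10.9 CPM in FLO libraries, and rose by 0.80 (SE 0.0957, edgeR adjusted p = 6.63e-06). Their annotated exons share no bases. Car5b, a mitochondrial carbonic anhydrase gene far beyond on the other side, rose by 1.64 (SE 0.172). Beside Slc34a2, Sel1l3 fell by 0.81 (SE 0.14) and 5033403H07Rik by 0.69 (SE 0.176), the latter a call lost without fibrotic replicate 5 or 6 or FLO replicate 4. Beside Cela2a, Fhad1 fell by 1.95 (SE 0.364) and Agmat, the agmatine hydrolase gene, by 0.92 (SE 0.101), while 0 of its 6 neighbours were past the threshold upwards in the edgeR fit, nor higher at an unadjusted p under 0.05. Near Fndc5, C77080 rose by 0.58 (SE 0.12). Near Asz1, St7 rose by 0.58 (SE 0.105), and Lsm8 and Tspan12 fell by 0.77 (SE 0.186) and 0.60 (SE 0.0853).

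**Figure D5:**
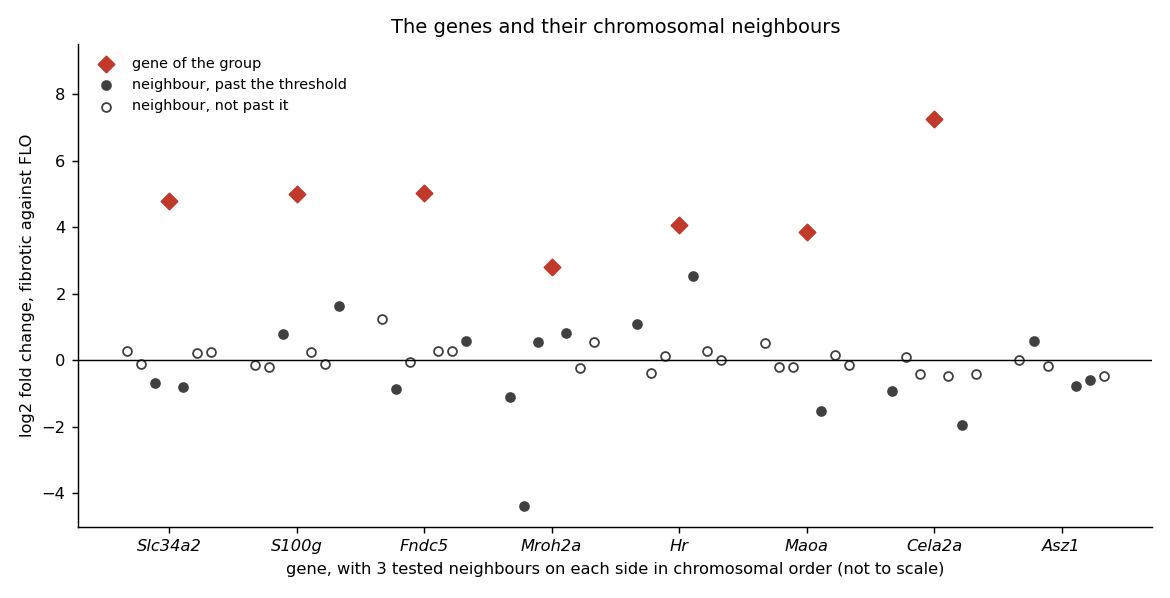
Log2 fold change (fibrotic against FLO) of 7 of the genes (red diamonds; Asz1 was not fitted) and of the 3 tested neighbours on each side of all 8, in chromosomal order and not to scale. Filled circles were past the threshold. Each diamond lies above all 6 of its neighbours, which the choice of the genes on this contrast fixes in large part. Nudt18 beside Hr, at 2.54, is the highest neighbour.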

How the data were processed

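Poly(A)-selected RNA of 12 whole mouse livers was measured. The authors deposited raw counts for each Ensembl gene in 1 table, not normalized. The submitters' processing notes name bcl2fastq, STAR 2.7.3a and the build mm10, and the study's methods name PISCES. The annotation release and the use of strand in counting are not given in the sources used here, so reads of overlapping genes on opposite strands cannot be told apart. Symbols and positions came from GENCODE M21 (GRCm38), which holds 51745 of the 56205 identifiers and 99.941% of counts, so positions are those of that annotation. Promoters came from RefSeq (GRCm38.p6).

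Group and replicate came from the sample titles. Where nothing says how mice were batched or caged, p-values measure the spread between these libraries. No pair of libraries in a group was alike within sampling noise (lowest chi-square per degree of freedom 10.7 over 30 pairs). Counts were tested in R 4.3.3 with edgeR 4.0.16 (quasi-likelihood, robust, TMM, filterByExpr, Benjamini-Hochberg over 13416 genes). A gene was past the threshold at an adjusted p of 0.01 or less and an absolute log2 fold change over 0.5. CPM use TMM-scaled library sizes, log2 CPM a prior count of 2, and levels per kilobase the merged exons. Correlations were tested by two-sided exact permutation with Benjamini-Hochberg adjustment over 28 pairs and over 32 relations. Counting intervals and floors (3 counts) cover counting error only. Alternatives used DESeq2 1.42.0, limma 3.58.1 (voom), other filters and scalings, a replicate block and the removal of each library.

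The 8 genes, the lists and the tests were chosen with earlier results of these data known. Genes are named if they are among the 8, past the threshold in a list or among neighbours, the gene with most counts of a list, the 3 with the highest fitted fold change of the class that starts below 2 CPM, or the 3 most alike to a gene with over 20 counts in every fibrotic library. Genes at 0 or not past the threshold that are named to describe a list, and pairs of genes, were chosen after their values were seen. Some genes that the rule would name are not reported here. On simulated counts for this comparison the fit recovered 91.9% of 197 changed genes among 13318, 1.09% of its calls were false, and it made 0 calls with no change simulated.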

Additional observations from a re-analysis of the deposited data

Results flagged for a closer look

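In 15 groups of 6 values (each gene in each group of libraries, without Asz1 in FLO), the gap of the highest or lowest library to its neighbour was set against the range, with Dixon's 95% critical value as limit. Chance passes this limit in about 1 of 20 groups, or 0.75 of 15, and 2 passed, of which the second was bound to pass. Slc34a2 was low in FLO replicate 1, with 10 counts against 23 to 40 in the other FLO libraries (ratio 0.673). Cela2a had its single FLO count in replicate 3 (ratio 1.0, which any single count beside 5 libraries at 0 gives), the library that also held Xist counts.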

How the results depend on the processing

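The counts of genes past the threshold stayed within the limits set for a change in all alternatives run. This held over all genes, in the lists together and among the neighbours. The median fold change of the 8 genes also kept its direction and stayed within its limit. The median of the 28 correlations stayed positive. Its limit was a standard error computed from the same removals of 1 library, 0.121, which is larger than the median of 0.105. That limit could hardly be passed, so it says little about how stable this median is. The number past the threshold over all genes was 3566 with at least 10 counts in every sample, 4655 in DESeq2, 3976 in limma-voom and 3798 to 4093 without any 1 library, against 4012. The median log2 fold change of the 8 ran from 4.70 to 5.01 without any 1 library, was 4.96 in limma-voom and was 4.43 from the ratio of mean CPM. The median correlation ran from 0.0344 to 0.184 without any 1 fibrotic library and was 0.0571 as Spearman rho. The number of relations with library measures at an adjusted p of 0.05 or less stayed at 0, a number that 6 libraries make hard to exceed. Same-numbered libraries of the groups deviated together with r of -0.162 to 0.104, so the replicate numbers were not taken as pairs. A fit with the replicate block gave 3780 genes past the threshold and 18 neighbours, and Epcam, Spp1, Cldn7 and Tdrkh lost their calls, which left 3 of 6 cholangiocyte markers and 2 of 3 germ cell genes. Changes of single lists under the other alternatives are given beside the lists. The limits are depth for Cela2a and Asz1, 6 libraries per group for the correlations, the choice of the 8 genes on the same contrast, and the library labelled FLO replicate 3.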
